A study of Homo sapiens with 32 samples.

Results

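Knockdown of CSN5 in 22Rv1 cells is described here across all genes, from 2 libraries with an shRNA against CSN5 (shCSN5) and 2 with a scramble shRNA. The libraries were chosen by their column names in the table that 22Rv1 shares with C4-2, and they are 4 of the 32 libraries of the series. The table lists 57445 genes, of which 15919 had enough counts to be tested in these 4 libraries. 22Rv1 is a castration-resistant human prostate cancer line. The series also holds 3 other prostate cancer lines with the same shRNA pair, and libraries of cells given CSN5i-3, an inhibitor of the CSN5 enzyme, or its solvent DMSO. Those of C4-2 have titles and descriptions that name opposite treatments, and they were not used here. The cells came from ATCC, were labelled as infected with an shRNA, and were grown under standard conditions, and the same shRNA code stands in the titles of every knockdown library, so 1 shRNA sequence stands for the knockdown. Total RNA was extracted with a Direct-Zol kit. For comparison, C4-2, a castration-resistant line derived from LNCaP, had the same 2 groups of 2 libraries in the same table, and 22Rv1 had 2 libraries with DMSO and 2 with 5 µM CSN5i-3 in a separate table. Nothing in the labels says that the libraries of a group were separate cultures, so the p values given here reflect the spread between libraries alone, which may be technical.

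CSN5 is the subunit that carries the enzymatic activity of the COP9 signalosome. This complex removes the small protein NEDD8 from cullins, the scaffolds of the largest family of ubiquitin ligases. Cullin ligases mark cell cycle inhibitors, transcription factors and signalling proteins for the proteasome, and they need cycles of NEDD8 addition and removal to exchange their substrate receptors. In prostate cancer cells androgens drive a luminal program that includes the kallikreins, among them KLK3, which encodes the serum marker PSA.

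Levels are given as CPM, the count of a gene relative to the library's total count scaled by TMM, and are not divided by gene length. COPS5, the gene that encodes CSN5, had 99.7 and 115 CPM in the scramble libraries and 17.2 and 16.4 CPM in the shCSN5 libraries. Both shCSN5 libraries were far below both scramble libraries, a 6.39-fold lower level as fitted, and the log2 fold change was -2.68 ± 0.11 (SE, n = 2 libraries per group, as for every change given here; edgeR adjusted p = 3.4e-08). In C4-2 the same shRNA took COPS5 to a lower level, with 130.2 and 116 CPM with scramble and 10.5 and 10.4 CPM with shCSN5 (-3.56 ± 0.12), and the 2 effects differed by 0.86 ± 0.13 (edgeR adjusted p = 0.0032). Of the 10 subunits of the signalosome tested, 2 rose, 1 fell and 7 did not pass the test. The 20% that rose and 10% that fell stand against 22.6% and 21.3% of all genes tested. The subunit COPS7A rose from 72.9 and 68.2 to 94.2 and 95.8 CPM (0.43 ± 0.082). COPS9, a small accessory subunit, was the other that rose, by 0.40 ± 0.12, and no longer passed without the first shCSN5 library (0.27, edgeR adjusted p = 0.34). The markers of the labelled cell type were present: HOXB13, a prostate lineage factor, had 280.0 and 262 CPM with scramble and 267 and 246 CPM with shCSN5 (-0.075 ± 0.079, edgeR adjusted p = 0.47), and the luminal keratin KRT8, described further on, was well above 100 CPM in every library.

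**Figure D1:**
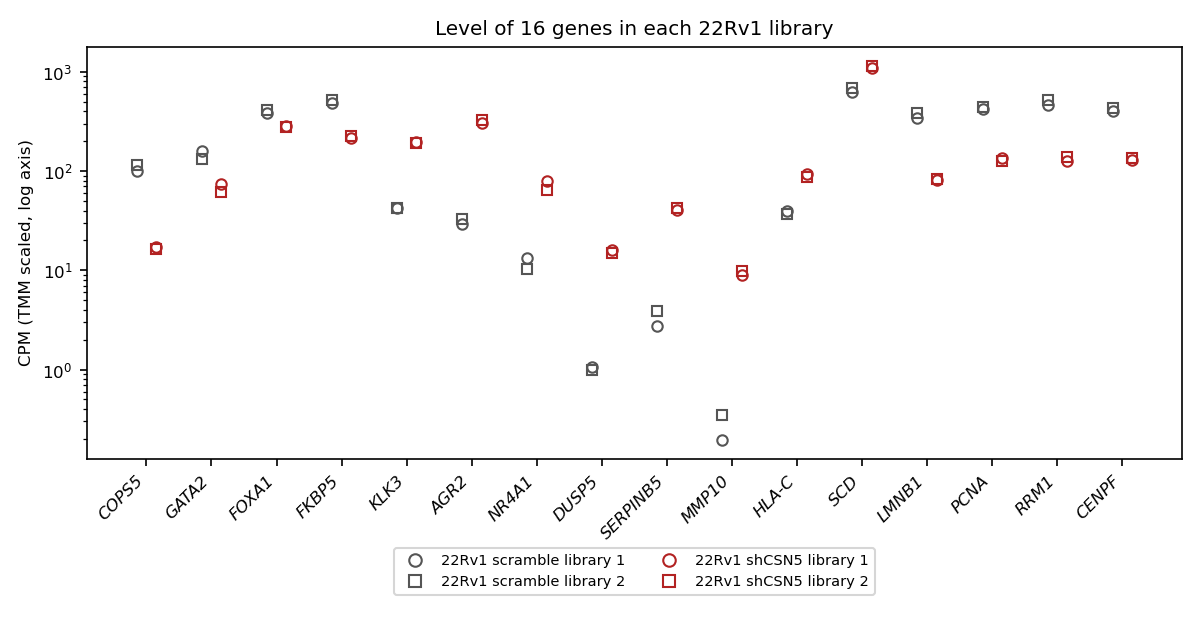
Levels of 16 genes in each of the 4 libraries, in CPM (TMM scaled) on a log axis. Circles are library 1 and squares library 2, with scramble in grey and shCSN5 in red. The 2 libraries of a group lie close together for each gene, and COPS5, at 17.2 and 16.4 CPM with shCSN5, is below both scramble libraries.

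A gene was counted as changed at a Benjamini-Hochberg adjusted p under 0.05 from the quasi-likelihood test of edgeR over all 15919 genes. Of these, 3595 rose (22.6%) and 3393 fell (21.3%), so 43.9% changed, and a list of genes is read against these shares. At least 2-fold changes were less even, with 1257 genes higher and 657 lower. At least 4-fold the counts were 395 and 38, and at least 8-fold 164 and 4. The median change of all genes tested was 0.02. The 4 libraries held 20.6 to 24.2 M counts, of which mitochondrial genes took 3.95 to 4.52% and the 10 largest genes 4.36 to 4.92%. The variance between the 2 libraries of a group, as a chi-square per gene, was 8.62 with scramble and 4.72 with shCSN5, where counting error alone gives about 1. Without the first shCSN5 library 4206 genes changed, and scaling by total counts gave 4279 higher and 2949 lower with a median of 0.085.

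Of 24 cullins, RING proteins and NEDD8 enzymes 4 rose and 4 fell, with a median of -0.01, and 16 did not pass. The share of 16.7% each way is under the 22.6% and 21.3% of all genes tested. DCUN1D3, which helps to transfer NEDD8 to cullins, rose from 6.78 and 6.89 to 13.5 and 14.1 CPM (1.01 ± 0.14), and RNF7, a RING partner of cullins, from 53.4 and 58.4 to 80 and 81.4 CPM (0.53 ± 0.087). CUL7, a cullin scaffold, fell from 44.2 and 38 to 29.1 and 27.1 CPM (-0.55 ± 0.11), and CAND2, an exchange factor of cullin receptors, from 10.2 and 9.18 to 6.12 and 5.45 CPM (-0.74 ± 0.15). Without either shCSN5 library the counts of this list were 2 higher and 2 lower.

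Among 40 adaptors and substrate receptors of cullin ligases 10 rose and 12 fell, with a median of -0.048. These shares, 25% and 30%, are near the 22.6% and 21.3% of all genes tested. Among those that fell, DTL, a receptor that removes replication factors in S phase, went from 149 and 166 to 66.3 and 68.5 CPM (-1.23 ± 0.084). DCAF7, a CUL4 receptor, fell from 335 and 350.0 to 211 and 217 CPM (-0.68 ± 0.074). CKS1B, a cofactor of the SKP2 ligase, fell from 124 and 128 to 68.5 and 72 CPM (-0.84 ± 0.079), and SKP2 itself, which targets the CDK inhibitor p27, from 86.8 and 87.7 to 54.5 and 53.9 CPM (-0.69 ± 0.082). In each case both shCSN5 libraries were below both scramble libraries. Among those that rose, FBXW7, a receptor for cyclin E and MYC, went from 26.1 and 30.1 to 53 and 52 CPM (0.90 ± 0.10). FBXO32, a receptor induced in muscle wasting, rose from 13.2 and 14 to 28.9 and 28.8 CPM (1.08 ± 0.12), and KLHL13, a CUL3 receptor with a role in mitosis, from 10.8 and 11.7 to 33.3 and 31.3 CPM (1.52 ± 0.12). KLHL13 did not pass in C4-2 (-0.32 ± 0.16), and the 2 effects differed by 1.81 ± 0.17 (edgeR adjusted p = 0.00029). Without the first shCSN5 library 6 members of this list rose.

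Genes of the androgen program and its lineage factors went both ways. GATA2, a pioneer factor of prostate cells, fell from 159 and 133 to 73.4 and 61.9 CPM (-1.11 ± 0.11), with both shCSN5 libraries below both scramble libraries, and the pioneer factor FOXA1 from 388 and 415 to 285 and 278 CPM (-0.51 ± 0.076). NR3C1, the glucocorticoid receptor, rose from 58.1 and 68.9 to 129 and 139.9 CPM (1.08 ± 0.10), and so did ETV1, an ETS factor, from 44.5 and 51.3 to 91.8 and 97.9 CPM (0.99 ± 0.095). Of the 16 hormone receptors and lineage factors tested 6 rose and 6 fell. Without the first shCSN5 library 2 of them rose.

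Of 25 androgen induced genes 15 fell and 6 rose, with a median of -0.27. FKBP5, a chaperone induced by steroid receptors, fell from 480.0 and 517 to 216 and 226 CPM (-1.18 ± 0.078). ZBTB10, a zinc finger repressor, fell from 882 and 970.0 to 254 and 249 CPM (-1.88 ± 0.082), and PMEPA1, an androgen-induced inhibitor of TGF-beta signalling, from 402 and 401 to 201 and 189.7 CPM (-1.04 ± 0.075). SLC45A3, the gene of the prostate antigen prostein, fell from 45 and 43 to 17.1 and 15.4 CPM (-1.44 ± 0.11). Among those that rose, ALDH1A3, a retinoic acid enzyme, went from 0.585 and 0.431 to 2.59 and 2.2 CPM (2.24 ± 0.29). Without the first shCSN5 library the counts were 9 lower and 3 higher.

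The kallikreins, secreted proteases encoded side by side in 1 cluster, did not move together. KLK3 had 42.6 and 42.3 CPM in the scramble libraries and 198 and 193 CPM in the shCSN5 libraries, a 4.59-fold higher level as fitted with no overlap, while KLK4 fell from 219 and 179 to 116 and 99.2 CPM (-0.89 ± 0.11) and KLK11 from 11.1 and 12.1 to 3.32 and 3.38 CPM (-1.79 ± 0.16). KLK2, the nearest relative of KLK3, went from 69.3 and 65.3 to 58.5 and 55.4 CPM (-0.24 ± 0.088), a call lost without the first scramble library (edgeR adjusted p = 0.060), without either shCSN5 library (0.25 and 0.27), with total counts (0.11) and with DESeq2 (0.072). KLK1 had 42.2 and 42.5 CPM with scramble and 40.2 and 37.3 CPM with shCSN5 (-0.13 ± 0.10, edgeR adjusted p = 0.32), and KLK15 3.56 and 3.62 CPM with scramble and 5.09 and 3.82 CPM with shCSN5 (0.31 ± 0.19, edgeR adjusted p = 0.21). The other members of the family were below the count filter.

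Enzymes of the UGT2B family, some of which inactivate androgens by glucuronidation and are repressed by androgens, rose. UGT2B15 went from 43.5 and 47.2 to 262 and 277 CPM (2.57 ± 0.084), UGT2B11 from 5.56 and 6.59 to 47.1 and 50.5 CPM (3.0 ± 0.13), UGT2B7 from 0.878 and 0.905 to 14.3 and 15.7 CPM (4.07 ± 0.19) and UGT2B10 from 8.59 and 10.3 to 147 and 148 CPM (3.96 ± 0.11). In each case both shCSN5 libraries were above both scramble libraries. This was a condition for naming UGT2B10, and for the place of UGT2B7 among the largest increases. These enzymes are near-identical in sequence, so how their reads were divided among them is uncertain. Of 11 androgen repressed genes 5 rose and 2 fell, the lower ones being DDC, a decarboxylase, from 8.54 and 7.5 to 5.09 and 5.36 CPM (-0.61 ± 0.16), lost without the first shCSN5 library (edgeR adjusted p = 0.068), and SLC44A5, a choline transporter relative, from 8.39 and 10.3 to 4.1 and 3.56 CPM (-1.29 ± 0.17).

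Of 13 luminal markers 10 rose and 2 fell, with a median of 0.69. AGR2, a secretory disulfide isomerase, had 29.3 and 32.7 CPM in the scramble libraries and 307 and 325 CPM in the shCSN5 libraries, a 10.2-fold higher level as fitted and a change of 3.35 ± 0.09 (edgeR adjusted p = 2.9e-09). ACP3, prostatic acid phosphatase, rose from 25.6 and 33.2 to 91.2 and 98.3 CPM (1.69 ± 0.12), and MSMB, a secreted prostate protein, from 1.61 and 1.64 to 8.11 and 9.63 CPM (2.44 ± 0.19). The luminal keratin KRT8 rose from 257 and 213 to 547 and 474 CPM (1.12 ± 0.10). The adhesion protein EPCAM was the 1 member that did not pass, with 125 and 134 CPM with scramble and 127 and 132 CPM with shCSN5 (0.00071 ± 0.077, edgeR adjusted p = 0.99).

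**Figure D2:**
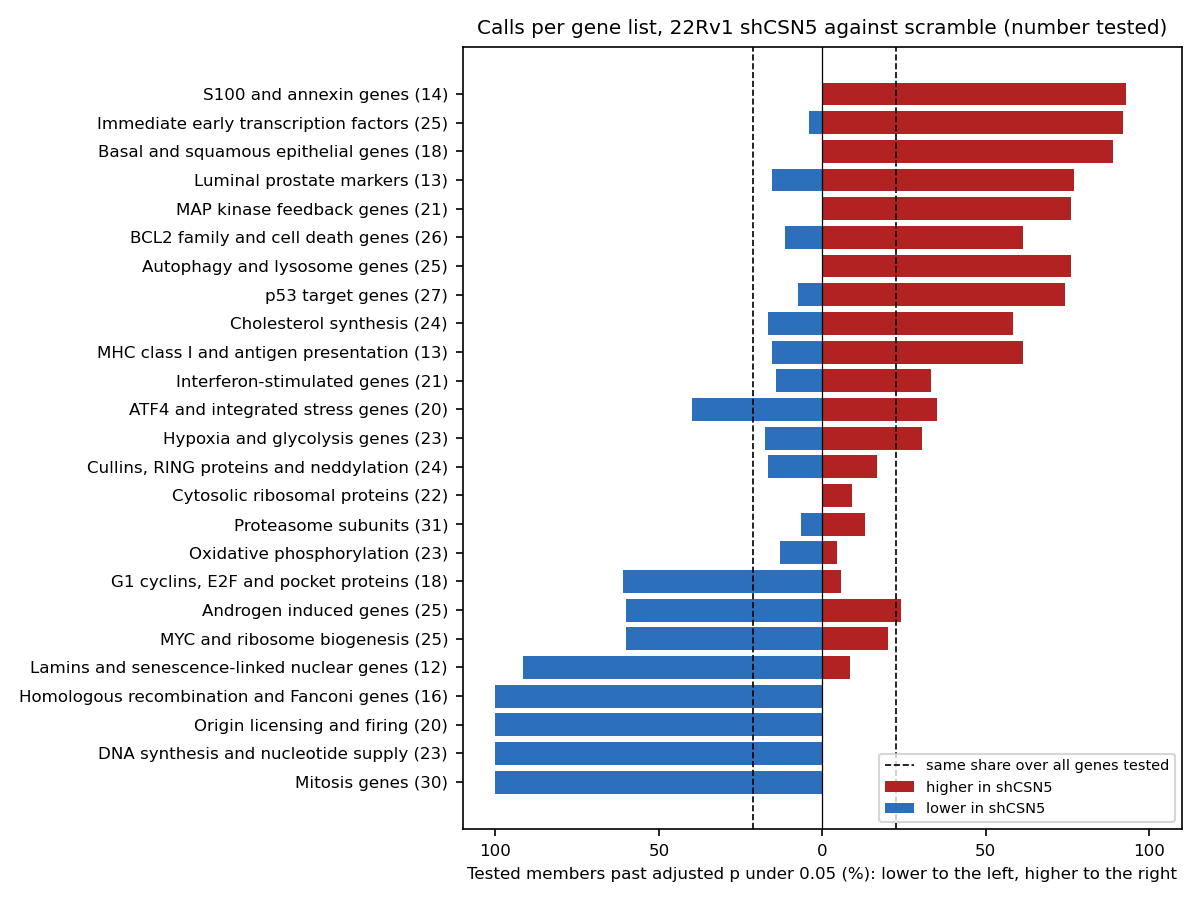
Share of the tested members of 25 gene lists that rose (red, to the right) or fell (blue, to the left) with shCSN5 in 22Rv1, in percent, with the number tested in parentheses. Dashed lines are the shares over all genes tested, 22.6% higher and 21.3% lower. The lists of DNA replication, mitosis and repair have bars to the left alone, and the autophagy, S100 and annexin lists bars to the right alone.

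Genes of DNA replication and mitosis fell as a group, list by list. All 20 of 20 genes that license and fire replication origins fell (median -1.07), all 23 of 23 genes of DNA synthesis and nucleotide supply (-0.94), all 30 of 30 mitosis genes (-1.26) and all 16 of 16 genes of homologous recombination and the Fanconi pathway (-1.03). Of the mitosis genes, 26 were at least 2-fold lower. In bulk RNA, fewer cells in a given phase and less RNA of these genes per cell cannot be told apart.

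UNG, which removes uracil from DNA, had 296 and 300.4 CPM in the scramble libraries and 58.9 and 63.6 CPM in the shCSN5 libraries, a 4.86-fold lower level as fitted and a change of -2.28 ± 0.08 (edgeR adjusted p = 2.3e-08). It was the lowest of the synthesis list, and CDC25B, a phosphatase that starts mitosis, was nearest to 0 in the mitosis list, from 90 and 82.3 to 67.5 and 62.4 CPM (-0.41 ± 0.088). RRM1, the large subunit of ribonucleotide reductase, fell from 461 and 516 to 127 and 138 CPM (-1.88 ± 0.087), and DUT, which clears dUTP, from 182 and 201 to 56 and 50.7 CPM (-1.84 ± 0.089). Of the replicative helicase, MCM3 fell from 234 and 231 to 94.7 and 95 CPM (-1.29 ± 0.074) and MCM4 from 544 and 560.5 to 233 and 244 CPM (-1.21 ± 0.075). ORC1, of the origin recognition complex, fell from 46.5 and 48.9 to 17.1 and 17.5 CPM (-1.46 ± 0.11). GMNN, an inhibitor of licensing, changed least among the origin genes, from 84 and 96.4 to 73.1 and 74.4 CPM (-0.29 ± 0.09), and did not pass without the second scramble library (edgeR adjusted p = 0.089), the first shCSN5 library (0.23) or the second (0.058). Among the repair genes BRIP1, a helicase that binds BRCA1, fell from 73.2 and 79.2 to 23.4 and 26.4 CPM (-1.61 ± 0.10), and FANCD2, the central Fanconi protein, from 132 and 149 to 57.5 and 61.3 CPM (-1.25 ± 0.088). CENPF, a kinetochore protein, fell from 402 and 435 to 129 and 134 CPM (-1.67 ± 0.079).

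Promoter sequence was searched for the letters of motifs known from cell cycle genes, since all of these lists fell together. The windows are the 250 bases before and 50 after each gene's start, from RefSeq on GRCh38.p14, and 11530 of 15910 tested symbols had one. The CHR, an element of late cell cycle promoters, was searched as TTTGAA, and the E2F site as TTTCCCGC and TTTGGCGC, on both strands. A stretch of the window with the match in capitals, 5′ to 3′ along the gene, is shown for 3 mitosis genes with a CHR, and for 3 synthesis genes with an E2F site. TOP2A, a topoisomerase (chr17:40417997-40418096, minus strand), has matches 151 and 194 bases before the start. PRC1, a spindle midzone protein (chr15:90994536-90994635, minus strand), has one at 20 bases and PLK1, a mitotic kinase (chr16:23678789-23678888, plus strand), one at 29 bases. The E2F match is at 59 bases in PCNA, the sliding clamp (chr20:5126623-5126722, minus strand), at 55 in RFC3, of the clamp loader (chr13:33818049-33818148, plus strand), and at 137 in POLA1, the catalytic subunit of the priming polymerase (chrX:24693758-24693857, plus strand).
TOP2A: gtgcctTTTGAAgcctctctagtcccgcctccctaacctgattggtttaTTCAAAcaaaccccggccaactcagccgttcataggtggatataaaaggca
PRC1: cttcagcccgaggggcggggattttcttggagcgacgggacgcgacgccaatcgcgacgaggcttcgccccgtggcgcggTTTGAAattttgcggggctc
PLK1: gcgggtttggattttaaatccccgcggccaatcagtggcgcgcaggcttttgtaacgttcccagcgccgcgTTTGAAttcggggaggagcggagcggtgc
PCNA: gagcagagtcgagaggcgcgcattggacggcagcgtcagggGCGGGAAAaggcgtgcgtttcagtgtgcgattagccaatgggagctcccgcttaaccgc
RFC3: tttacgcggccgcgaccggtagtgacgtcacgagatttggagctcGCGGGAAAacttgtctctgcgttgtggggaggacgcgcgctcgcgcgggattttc
POLA1: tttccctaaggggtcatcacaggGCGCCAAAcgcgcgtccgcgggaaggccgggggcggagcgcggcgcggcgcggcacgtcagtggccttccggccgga

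These 6 genes fell. PRC1 went from 340.5 and 359 to 132 and 136 CPM (-1.38 ± 0.076), PLK1 from 91.7 and 79.8 to 36.5 and 37.1 CPM (-1.22 ± 0.10), RFC3 from 119 and 135 to 80.8 and 78.1 CPM (-0.68 ± 0.086) and POLA1 from 71.6 and 80.8 to 31.4 and 35.5 CPM (-1.19 ± 0.10). The groups did not overlap for any of them. Over the mitosis list 15 of the 24 genes with a window held a CHR (62.5%), against 9.68% of tested genes, 15.4% of all 27305 promoters of the table and 13.2% of the 2539 windows of genes that fell. An E2F match was in 8 of 17 origin genes (47.1%) and 7 of 21 synthesis genes (33.3%), against 3.6% of tested genes, 2.31% of all promoters and 5.67% of genes that fell. Repair genes held an E2F match in 15.4% of 13 windows and a CHR in 7.69%. A match describes letters in the window and is not evidence of a bound factor.

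**Figure D3:**
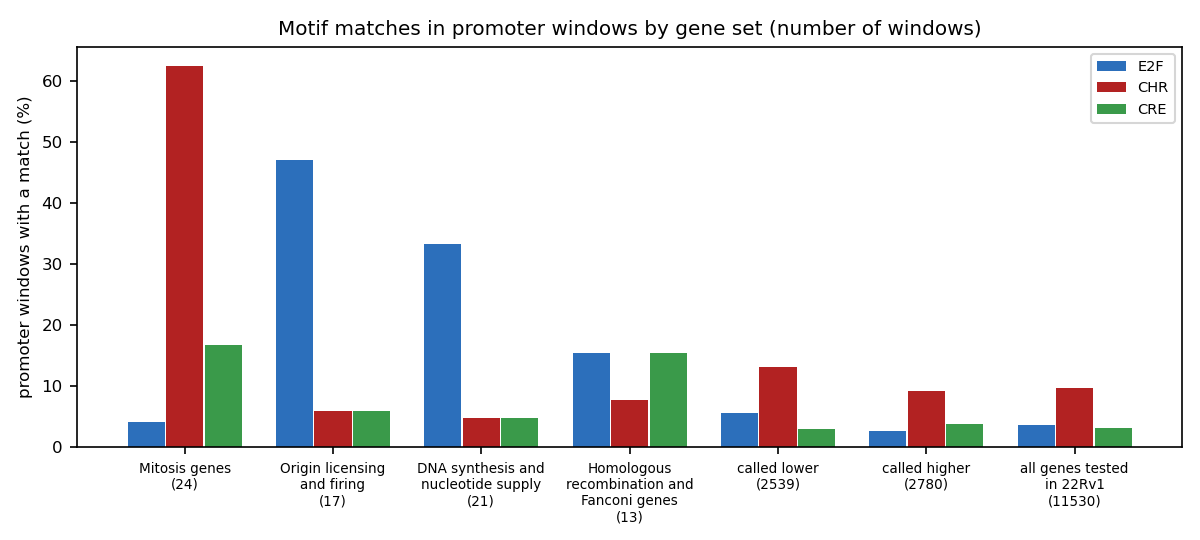
Percentage of promoter windows that hold an E2F, CHR or CRE match, as bars, for the mitosis, origin, DNA synthesis and repair lists, for all genes that fell or rose with shCSN5 and for all genes tested in 22Rv1. The CHR bar stands at 62.5% for mitosis genes and the E2F bars at 47.1% and 33.3% for the 2 replication lists.

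Of 18 G1 cyclins, E2F factors and pocket proteins 11 fell and 1 rose. The repressor E2F8 fell from 36.9 and 38.4 to 12.2 and 12.7 CPM (-1.6 ± 0.11), the activator E2F2 from 103 and 96 to 40.2 and 42.9 CPM (-1.26 ± 0.088), and RBL1, the pocket protein p107, from 42 and 45.2 to 15 and 15.3 CPM (-1.52 ± 0.11). CCND1, cyclin D1, fell from 2791 and 2830.0 to 1972 and 1871 CPM (-0.55 ± 0.083). The member that rose was CCNE1, cyclin E1, from 11.2 and 10.3 to 13.5 and 16 CPM (0.46 ± 0.14), a call lost without the second scramble or the second shCSN5 library (edgeR adjusted p = 0.054 and 0.24) and with DESeq2 (adjusted p = 0.083). Without the first scramble library 3 members rose, and without the second shCSN5 library none.

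Of the 7 CDK inhibitors 3 rose and 2 fell. CDKN1A, which encodes p21, had 94.2 and 85.6 CPM in the scramble libraries and 193 and 178 CPM in the shCSN5 libraries. CDKN1B, which encodes p27, a substrate of the SKP2 ligase, rose from 220.3 and 235 to 392 and 379.8 CPM (0.76 ± 0.076), and CDKN2B, which encodes p15, from 5.51 and 7.15 to 12 and 13 CPM (0.98 ± 0.16). The INK4 genes CDKN2C and CDKN2D, which encode p18 and p19, fell, from 48.7 and 47 to 21.6 and 21.1 CPM (-1.17 ± 0.10) and from 25.7 and 23.1 to 11.2 and 10.1 CPM (-1.2 ± 0.13). In all 5 the groups did not overlap.

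All 7 tested histone genes of the replication-dependent clusters rose, with a median of 1.4, among them H2BC12 from 23.3 and 25.1 to 82.3 and 77.2 CPM (1.72 ± 0.10), H2AC6 from 11.5 and 14.6 to 40.2 and 41.3 CPM (1.64 ± 0.13) and H2BC21 from 27.4 and 28.8 to 74.4 and 74.2 CPM (1.4 ± 0.092). Their transcripts are near-identical between copies and mostly lack a poly(A) tail, and the RNA selection used for the libraries is not given in the sources used here. Among lamins and nuclear genes linked to senescence 11 of 12 fell: LMNB1, lamin B1, from 341 and 383 to 80.9 and 84 CPM (-2.14 ± 0.085), HELLS, a chromatin remodeller, from 146 and 168 to 60 and 57.3 CPM (-1.43 ± 0.09), and HMGB2, a chromatin protein of dividing cells, from 1266 and 1309 to 630.4 and 641 CPM (-1.02 ± 0.078).

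Markers of other cell types were low throughout. Fibroblast markers summed to 18.1 and 18.2 CPM with scramble and to 23.2 and 22.4 CPM with shCSN5, with 4 of 10 tested. Of these 2 rose and 1 fell, PDGFRA, a growth factor receptor, from 0.585 and 0.560 to 0.129 and 0.0879 CPM (-2.33 ± 0.56), which did not pass with DESeq2 (adjusted p = 0.13). COL1A1, a fibrillar collagen, went from 3.46 and 2.07 to 6.86 and 5.63 CPM (1.19 ± 0.23), and COL3A1 was the other that rose. COL1A2, THY1 and FAP were at or near 0. The fibroblast markers whose levels are given here hold the smaller part of the sums. Leukocyte markers summed to 1.17 and 0.948 CPM and to 3.67 and 2.20 CPM, with CD3D, CD3E, MS4A1 and FCGR3A at 0, and PTPRC, the common leukocyte antigen, rose from 0.146 and 0.215 to 1.47 and 0.659 CPM (2.51 ± 0.55). Their part in the results was not tested. Endothelial markers summed to at most 0.906 CPM, and none of 7 had the counts to be tested.

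Immediate early genes, transcription factors that respond within minutes to growth factors and stress, rose. Of 25 tested, 23 rose and 1 fell, with a median of 1.72 that is the same when EGR4, counted in no scramble library, is set to its bound (at least 7.0-fold higher on a floor of 3 counts over the group). NR4A1, an orphan nuclear receptor, had 13.3 and 10.2 CPM in the scramble libraries and 79.8 and 64.1 CPM in the shCSN5 libraries, with no overlap and a change of 2.62 ± 0.15 (edgeR adjusted p = 3.3e-07). FOSB, a subunit of the factor AP-1, rose from 1.71 and 1.72 to 14 and 12.9 CPM (2.97 ± 0.17). Of the other AP-1 subunits FOSL1 rose from 0.439 and 0.345 to 4.7 and 4.44 CPM (3.54 ± 0.26), FOSL2 from 13.7 and 13.1 to 47.4 and 45.4 CPM (1.79 ± 0.11) and JUN from 21.6 and 20.1 to 57.9 and 52.4 CPM (1.4 ± 0.11). SRF, the factor that drives many of these genes, rose from 49.9 and 45.5 to 115 and 106 CPM (1.22 ± 0.089). MYC was the member that fell, from 148 and 136 to 59.8 and 54.9 CPM (-1.31 ± 0.086), and KLF2 the member that did not pass, with 1.56 and 1.85 CPM with scramble and 1.94 and 2.07 CPM with shCSN5 (0.23 ± 0.23, edgeR adjusted p = 0.45).

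EGR1, a zinc finger factor, rose from 10.7 and 10 to 38 and 33.3 CPM (1.78 ± 0.13). Its promoter (chr5:138465359-138465478, plus strand) is shown because it holds 2 CArG boxes, the element that SRF binds. Their first bases are 83 and 105 before the start, in capitals. A part of SRF in the rise of EGR1 was not tested.
EGR1: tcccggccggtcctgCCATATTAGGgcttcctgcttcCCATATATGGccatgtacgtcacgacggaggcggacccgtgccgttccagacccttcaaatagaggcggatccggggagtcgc
A CArG box was in 2 of the 19 windows of this list (10.5%), those of EGR1 and SRF, and in 1.05% of those of tested genes. The CRE, searched as TGACGTCA, was in 2 of the 19 (10.5%) and in 3.2%. Counts this small carry no test.

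Phosphatases and adaptors that damp MAP kinase signalling rose with them: 16 of 21 rose and 0 fell, with a median of 0.93. DUSP5, a nuclear phosphatase of ERK, had 1.07 and 0.991 CPM in the scramble libraries and 15.8 and 15.1 CPM in the shCSN5 libraries, or 3.9 ± 0.18 on the log2 scale. DUSP4, which acts on ERK and JNK, rose from 38.4 and 40.8 to 185 and 183 CPM (2.22 ± 0.081), and DUSP10, which acts on JNK and p38, from 16.8 and 17.1 to 44.7 and 44.4 CPM (1.4 ± 0.11). The Sprouty protein SPRY2 rose from 17.3 and 18.5 to 39.1 and 37.9 CPM (1.1 ± 0.11). EPHA2, a receptor kinase induced by ERK, rose from 12.5 and 9.73 to 34.5 and 29.4 CPM (1.52 ± 0.15), and PHLDA1 from 10.3 and 9.48 to 34.5 and 31.6 CPM (1.74 ± 0.12). DUSP7 had 24.2 and 20.8 CPM with scramble and 24.2 and 21.3 CPM with shCSN5 (0.018 ± 0.13, edgeR adjusted p = 0.92).

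Of 12 tested EGF family ligands, receptors and regulators 6 rose and 1 fell. The ligand HBEGF rose from 4.15 and 4.52 to 26.5 and 25.4 CPM (2.58 ± 0.14), and TGFA from 6.1 and 5.86 to 15 and 14.4 CPM (1.29 ± 0.14). The receptor EGFR fell from 182 and 182 to 88.1 and 97.7 CPM (-0.97 ± 0.081), while its partner ERBB2 rose from 98.6 and 81.2 to 157 and 134 CPM (0.69 ± 0.11), and ERBB3 had 244 and 243 CPM with scramble and 249 and 252 CPM with shCSN5 (0.042 ± 0.072, edgeR adjusted p = 0.67). ERRFI1, a protein that inhibits EGFR, rose from 44.9 and 49.8 to 216 and 225 CPM (2.22 ± 0.085). The ligand BTC had 5.27 and 5.73 CPM with scramble and 4.57 and 5.58 CPM with shCSN5 (-0.12 ± 0.17, edgeR adjusted p = 0.61). For those of these genes that changed the groups did not overlap.

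In the IGF axis the ligand IGF1 had 10.5 and 12.4 CPM in the scramble libraries and 1.21 and 1.23 CPM in the shCSN5 libraries, a 9.4-fold lower level as fitted with no overlap. Its receptor IGF1R fell from 41.6 and 46 to 19.5 and 19.1 CPM (-1.18 ± 0.11). IGFBP3, a binding protein that holds IGF in the serum, had 409.6 and 426 CPM with scramble and 442 and 442 CPM with shCSN5 (0.081 ± 0.074, edgeR adjusted p = 0.40). Of 10 tested, 1 rose and 3 fell, or 3 and 3 without the first scramble library, 1 and 2 without the second, 0 and 2 without the first shCSN5 library and 2 and 2 without the second.

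Of 18 tested genes of basal and squamous epithelium 16 rose and 0 fell, with a median of 1.75, and 25 are on the list. SERPINB5, the serpin maspin, had 2.73 and 3.92 CPM in the scramble libraries and 40.4 and 42.3 CPM in the shCSN5 libraries, or 3.62 ± 0.16 on the log2 scale (edgeR adjusted p = 7.0e-08). LAMB3, a subunit of laminin 332, the anchor of basal cells, rose from 1.27 and 1.47 to 17.6 and 14.1 CPM (3.53 ± 0.20). COL17A1, a hemidesmosome collagen, rose from 0.146 and 0.129 to 6.43 and 5.1 CPM (5.34 ± 0.33), and ITGB4, the integrin that binds laminin 332, from 0.585 and 0.431 to 6.56 and 4.62 CPM (3.46 ± 0.29). DSC3, a desmosome protein with 2 counts in the scramble libraries and 26 in the shCSN5 libraries, was 12.4-fold higher, with a 95% counting interval of 3.11 to 108.

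The basal keratins themselves were mostly absent. Of 12 on the list 3 were tested, and all rose: KRT15, KRT80 and KRT16. KRT15 went from 0.780 and 0.517 to 14.3 and 14.4 CPM (4.47 ± 0.21). KRT80 went from 0.537 and 0.689 to 1.25 and 1.63 CPM (1.21 ± 0.32), a call lost without the second shCSN5 library (edgeR adjusted p = 0.069). KRT16 was counted in no scramble library and 29 times in the shCSN5 libraries, so it was at least 9.22-fold higher on a floor of 3 counts over the group. The median of these 3 keratins is 4.47 as fitted and 3.21 with KRT16 at its bound. Keratin genes share sequence, so reads divided among them are uncertain. Of the canonical basal pair, KRT5 was at or under 0.132 CPM in every library.

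S100 and annexin genes, which bind calcium and are abundant in migrating and stratified epithelium, rose in 13 of 14 cases (median 2.09). S100A6 rose from 20.4 and 19.3 to 96.7 and 79.4 CPM (2.15 ± 0.11), S100A11 from 129.6 and 128 to 299 and 306 CPM (1.23 ± 0.074) and S100A16 from 0.0976 and 0.0862 to 4.75 and 4.88 CPM (5.63 ± 0.33). ANXA2, which brings plasminogen to the cell surface, rose from 7.12 and 7.32 to 51.6 and 56.4 CPM (2.9 ± 0.12).

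Among 12 metalloproteinases and genes of the plasminogen system 6 rose and 2 fell. The stromelysin MMP10 had 0.195 and 0.345 CPM in the scramble libraries and 9.06 and 9.89 CPM in the shCSN5 libraries, a 33.9-fold higher level as fitted and a change of 5.08 ± 0.26 (edgeR adjusted p = 1.6e-07). The collagenase MMP1 had 0.488 and 1.03 CPM in the scramble libraries and 44 and 49.2 CPM in the shCSN5 libraries. Inhibitors of these enzymes rose as well, TIMP1 from 57.7 and 45.5 to 89.3 and 79.2 CPM (0.71 ± 0.12) and TIMP2 from 2.29 and 1.64 to 4.92 and 6.46 CPM (1.54 ± 0.22). The promoter of MMP10 (chr11:102780629-102780728, minus strand) is shown because it holds the AP-1 letters TGANTCA, in capitals, 67 bases before the start. A part of AP-1 in the rise of MMP10 was not tested.
MMP10: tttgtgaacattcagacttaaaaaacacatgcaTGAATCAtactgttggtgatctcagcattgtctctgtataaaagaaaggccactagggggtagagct
AP-1 letters were in 2 of the 8 windows of this list, 41.7% of the 12 of the basal and squamous list and 4.42% of those of tested genes, 7.76% of all promoters, and 5.72% of the 2780 windows of genes that rose. They were also in 3 of the 8 windows of the neuroendocrine list and in 1 of the 19 of the immediate early list. These are counts of a few windows and carry no test.

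Tight junction genes rose in 6 of 14 cases and fell in 0, CLDN4 from 132 and 107 to 391 and 333 CPM (1.6 ± 0.11) and CLDN1 from 1.02 and 1.25 to 5.05 and 5.05 CPM (2.14 ± 0.21), and without the first shCSN5 library 3 rose. Of 11 mesenchymal genes 4 rose and 3 fell (36.4% and 27.3%), against 22.6% and 21.3% of all genes tested. CD44, a hyaluronan receptor, rose from 91.7 and 101 to 139.8 and 142 CPM (0.55 ± 0.08). SPARC, a matrix glycoprotein, was counted 2 times in the scramble libraries and 54 times in the shCSN5 libraries, a ratio of 25.8 with a 95% counting interval of 6.79 to 218.

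Of 10 neuroendocrine genes 3 rose and 3 fell (30% each), near the 22.6% and 21.3% of all genes tested. CHGB, a granin of secretory granules, rose from 33.8 and 34.4 to 92 and 92.8 CPM (1.44 ± 0.086), and SCGN, a calcium sensor of endocrine cells, from 2.54 and 2.11 to 9.92 and 11.8 CPM (2.23 ± 0.18). SRRM4, a splicing factor of neuroendocrine prostate cancer, fell from 127 and 131 to 30.5 and 33.9 CPM (-2.0 ± 0.09). Without the first shCSN5 library 1 member fell.

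**Figure D4:**
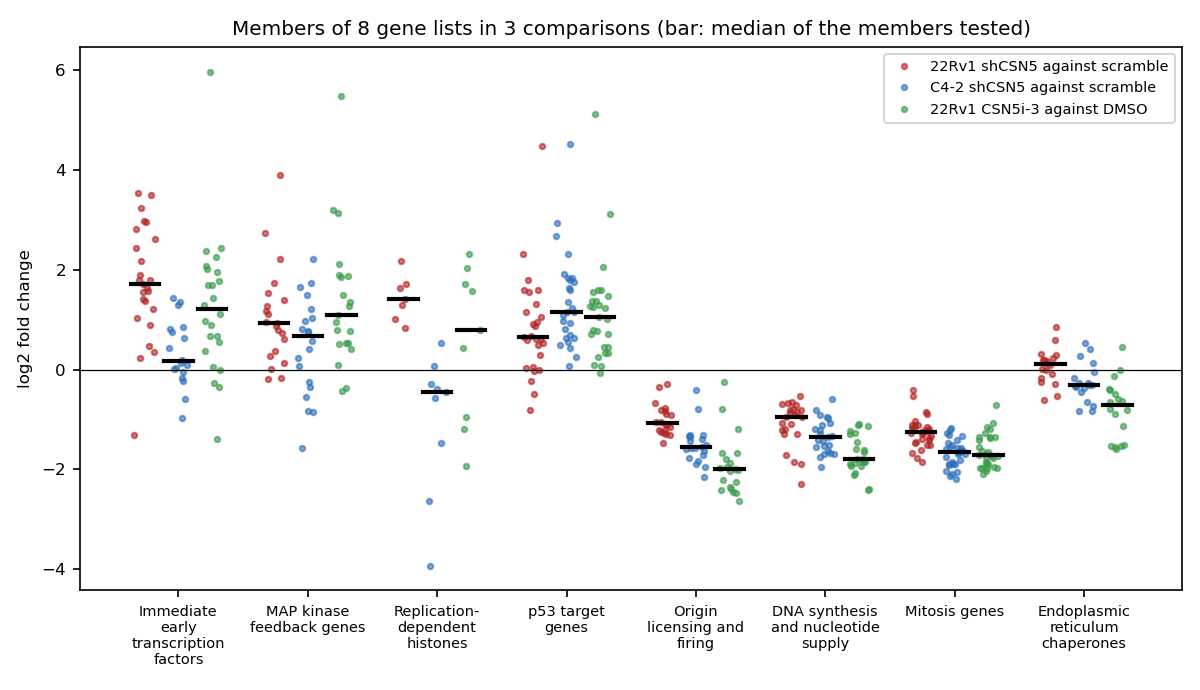
Log2 fold changes of the members of 8 gene lists (points) with shCSN5 in 22Rv1, shCSN5 in C4-2 and CSN5i-3 in 22Rv1, with the median of each list as a bar. Genes with 3 or fewer scramble counts are drawn at their bound or counting ratio. Immediate early genes have a median of 1.72 in 22Rv1 and of 0.17 in C4-2 with shCSN5, and mitosis genes are below 0 in all 3 comparisons.

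Targets of p53 rose in 20 of 27 cases and fell in 2, with a median of 0.66. GDF15, a stress cytokine, had 11.9 and 9.05 CPM in the scramble libraries and 268 and 197 CPM in the shCSN5 libraries, a 22.2-fold higher level as fitted. BTG2, an antiproliferative factor, rose from 42.7 and 41.9 to 92.6 and 95.9 CPM (1.16 ± 0.084). TP53INP1 and CCNG1, both induced by p53 in other settings, fell, CCNG1 from 215 and 245 to 163 and 166 CPM (-0.48 ± 0.083). MDM2, the ligase of p53, had 261 and 303 CPM with scramble and 277 and 279 CPM with shCSN5 (-0.02 ± 0.085, edgeR adjusted p = 0.87).

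Of 20 genes of ATF4 and the integrated stress response 7 rose and 8 fell, with a median of -0.051 that total-count scaling turns to 0.015. Among the members that rose, DDIT3, which encodes CHOP, went from 48.2 and 48.4 to 94.1 and 106 CPM (1.05 ± 0.09). PPP1R15A, which ends the stress response, rose from 35.7 and 30.8 to 98.1 and 92.7 CPM (1.52 ± 0.10), and SESN2, an mTORC1 inhibitor, from 23.2 and 19.1 to 55.5 and 48.8 CPM (1.3 ± 0.12). Among those that fell, PHGDH, of serine synthesis, went from 158 and 138 to 88.1 and 77.2 CPM (-0.84 ± 0.10). MTHFD2, of mitochondrial folate metabolism, fell from 351 and 378 to 204 and 215 CPM (-0.80 ± 0.078), and SLC7A11, the cystine transporter, from 124 and 137 to 86 and 89.2 CPM (-0.58 ± 0.082).

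Among chaperones of the endoplasmic reticulum DNAJB9 rose from 35.7 and 40.1 to 68.7 and 67.5 CPM (0.84 ± 0.10). CANX, calnexin, fell from 1338 and 1501 to 973 and 995 CPM (-0.53 ± 0.085). Of the 18 tested 4 rose and 4 fell (22.2% each), near the 22.6% and 21.3% of all genes tested. Without the first shCSN5 library 1 rose and 2 fell, and with total counts 8 rose. HSPA5, the chaperone BiP, had 1350.0 and 1487 CPM with scramble and 1608 and 1648 CPM with shCSN5 (0.20 ± 0.084, edgeR adjusted p = 0.078), and it passed with total counts (0.26, edgeR adjusted p = 0.013). With DESeq2 HSPA5 was at 0.19 (adjusted p = 0.039). Of 14 heat shock genes 4 rose and 3 fell (28.6% and 21.4%), near the 22.6% and 21.3% of all genes tested. The mitochondrial chaperone HSPD1 fell from 2141 and 2358 to 1517 and 1576 CPM (-0.54 ± 0.086). Its partner HSPE1 fell from 308 and 349 to 208 and 219.5 CPM (-0.62 ± 0.084). Of 31 proteasome subunits 25 did not pass, and no change was past -0.23 or 0.35. Its 4 higher calls were 0 and 2 without the first or second shCSN5 library, 8 without the first scramble library and 10 with total counts. Its 2 lower calls were 6 without the first scramble library and 0 without any other.

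Autophagy and lysosome genes rose in 19 of 25 cases and fell in 0 (median 0.45), or 12 without the first shCSN5 library. WIPI1, an early autophagy protein, rose from 17.1 and 17.3 to 40.5 and 43 CPM (1.28 ± 0.11), and NEU1, a lysosomal sialidase, from 79.8 and 77.5 to 157 and 155 CPM (0.99 ± 0.076). Of 21 targets of NRF2, itself a cullin ligase substrate, 9 rose and 3 fell. HMOX1, heme oxygenase, rose from 8.68 and 7.5 to 19.6 and 17 CPM (1.18 ± 0.15), and the aldo-keto reductases AKR1C1 from 6.15 and 5.9 to 22.2 and 26.1 CPM (2.0 ± 0.14) and AKR1C2 from 13 and 12 to 48.3 and 50.4 CPM (1.98 ± 0.11), which share sequence and are uncertain for that reason. GCLC, of glutathione synthesis, fell from 196 and 216 to 120.3 and 121 CPM (-0.77 ± 0.079).

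Of 26 genes of the BCL2 family and cell death 16 rose and 3 fell, or 10 higher without the first shCSN5 library. BCL2 itself, an inhibitor of apoptosis, fell from 14.7 and 16.6 to 4.83 and 5.01 CPM (-1.67 ± 0.15). BID, a promoter of apoptosis, rose from 6.29 and 6.42 to 17.8 and 16.8 CPM (1.44 ± 0.14), and TNFRSF10B, a death receptor, from 113 and 112 to 219 and 215 CPM (0.95 ± 0.074). BCL2L11, which encodes the killer protein BIM, fell from 31.3 and 36.5 to 24.7 and 23.9 CPM (-0.48 ± 0.12), and the survival gene MCL1 rose from 468 and 512 to 716 and 727 CPM (0.56 ± 0.079).

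NF-kB components and feedback genes rose in 9 of 18 cases and fell in 2. NFKBIZ, a nuclear cofactor, rose from 41.7 and 46.4 to 156 and 161 CPM (1.85 ± 0.086), while NFKBIA, the inhibitor that is destroyed by a cullin ligase, fell from 54.8 and 52.6 to 29.8 and 28.5 CPM (-0.88 ± 0.10). Of the cytokines 11 of 31 were tested, and 7 rose and 1 fell. EDN1, the vasoconstrictor endothelin, rose from 4.73 and 5.34 to 21.7 and 20.4 CPM (2.06 ± 0.14). IL18, an inflammatory cytokine, had 3 counts in the scramble libraries and 30 in the shCSN5 libraries, a ratio of 9.54 with a 95% counting interval of 2.97 to 48.9.

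Of 21 interferon-stimulated genes 7 rose and 3 fell (33.3% and 14.3%), against 22.6% and 21.3% of all genes tested. Their median was 0.22, and 11 did not pass. ISG20, an RNA exonuclease, rose from 7.07 and 5.82 to 22.2 and 17.6 CPM (1.63 ± 0.16), and OAS3, a sensor of double-stranded RNA, fell from 52.9 and 51.7 to 22.4 and 23.2 CPM (-1.2 ± 0.10). Antigen presentation genes rose in 8 of 13 cases and fell in 2. HLA-C, a class I heavy chain, rose from 39.6 and 37.1 to 94 and 87.5 CPM (1.24 ± 0.09), and NLRC5, an activator of class I genes, from 0.244 and 0.431 to 2.8 and 3.21 CPM (3.11 ± 0.31). The peptide transporter subunit TAP2 fell from 15.3 and 16.4 to 8.32 and 9.89 CPM (-0.80 ± 0.14), and B2M, the light chain, had 218 and 235 CPM with scramble and 222 and 226 CPM with shCSN5 (-0.016 ± 0.076, edgeR adjusted p = 0.88). HLA genes share sequence, which makes the division of reads among them uncertain.

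In TGF-beta and BMP signalling 10 genes rose and 5 fell of 19. The ligands BMP2 and INHBA rose, from 17.5 and 17.6 to 58.1 and 57.1 CPM (1.72 ± 0.10) and from 6.34 and 7.15 to 26.4 and 24.3 CPM (1.91 ± 0.14), as did BAMBI, a decoy receptor, from 3.76 and 5.08 to 20.4 and 18.6 CPM (2.13 ± 0.17). The inhibitor SMAD7 fell from 27.5 and 24.8 to 16.6 and 15.5 CPM (-0.71 ± 0.12), and INHBB, another activin chain, from 11 and 10.6 to 5.91 and 5.45 CPM (-0.93 ± 0.15), with 3 lower without the first shCSN5 library. YAP and TEAD targets rose in 7 of 14 cases, CCN2 from 8.49 and 9.35 to 42.4 and 40.3 CPM (2.21 ± 0.12) and AMOTL2 from 8.63 and 7.54 to 18.7 and 16.9 CPM (1.14 ± 0.14), and the 3 lower calls were 0 and 1 without the first or second shCSN5 library and 1 without the first scramble library. In Wnt and Notch signalling LEF1, a Wnt effector, rose from 33.1 and 34.7 to 61.2 and 61 CPM (0.85 ± 0.092). NRARP, a Notch feedback gene, fell from 28.3 and 27.9 to 14.8 and 14.6 CPM (-0.93 ± 0.12). Of the 15 tested 3 rose and 4 fell (20% and 26.7%), near the 22.6% and 21.3% of all genes tested. Here 6 rose without the first scramble library, and 2 fell without either shCSN5 library.

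Lipid genes moved without 1 direction. Cholesterol synthesis genes rose in 14 of 24 cases and fell in 4 (median 0.28), or 5 higher and 1 lower without the first shCSN5 library. IDI1, an early enzyme of the pathway, rose from 265 and 307 to 433 and 425 CPM (0.59 ± 0.085). In fatty acid synthesis SCD, the stearoyl desaturase, rose from 627 and 689 to 1101 and 1150.0 CPM (0.77 ± 0.083) and ACSS2, which makes acetyl-CoA, from 51.7 and 51.1 to 101 and 101 CPM (0.98 ± 0.081), while FADS1 and ELOVL6, which desaturate and lengthen fatty acids, fell from 235 and 253 to 138 and 144 CPM (-0.79 ± 0.077) and from 211 and 225 to 139 and 149.9 CPM (-0.59 ± 0.079). Of 14 genes of this list 3 rose and 5 fell, or 3 lower without the first shCSN5 library.

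Of 25 genes of the MYC network and ribosome biogenesis 15 fell, MYC among them, and 5 rose, with 6 lower and 3 higher without the first shCSN5 library. POLR1B, of RNA polymerase I, fell from 63.5 and 67.6 to 26.3 and 27.4 CPM (-1.29 ± 0.10), and NOP56, of the nucleolus, from 226 and 241 to 137 and 139.5 CPM (-0.76 ± 0.075). MXD1, an antagonist of MYC, rose from 28.9 and 32 to 47 and 47.7 CPM (0.64 ± 0.10), and MYCL, a relative of MYC, from 3.56 and 3.62 to 6.25 and 6.33 CPM (0.81 ± 0.16). Cytosolic ribosomal proteins rose in 2 of 22 cases, oxidative phosphorylation genes in 1 of 23 with 3 lower, and neither list had a change past 0.62 in size. Without the first scramble library these counts were 7 higher and 4 lower for the ribosomal proteins, and 4 higher and 5 lower for oxidative phosphorylation, where 1 and 0 fell without the second scramble or the first shCSN5 library. Of 23 hypoxia and glycolysis genes 7 rose and 4 fell (30.4% and 17.4%), against 22.6% and 21.3% of all genes tested, with a median of 0.026. EGLN3, an oxygen sensor, rose from 2.98 and 3.53 to 10.2 and 10.9 CPM (1.69 ± 0.16).

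Outside these lists, the secreted peptide NTS, neurotensin, was among the largest increases, from 2.05 and 1.94 to 37.7 and 39.4 CPM (4.27 ± 0.15). ECM1, a secreted matrix protein, rose from 0.537 and 0.517 to 13.2 and 11.9 CPM (4.56 ± 0.21), and DNAH8, a dynein of cilia and a prostate cancer gene, from 0.683 and 0.646 to 12.6 and 13.7 CPM (4.29 ± 0.20). DHRS2, a mitochondrial reductase, was among the largest decreases, from 71.8 and 73.1 to 13.2 and 14.1 CPM (-2.41 ± 0.10). RPIA, of the pentose phosphate pathway, fell from 47 and 47 to 11.9 and 10.6 CPM (-2.06 ± 0.12), TMEM64 from 76.2 and 85.3 to 16.6 and 16.7 CPM (-2.28 ± 0.10), CYP1A2, a drug-metabolising enzyme, from 15.3 and 15.8 to 3.45 and 3.69 CPM (-2.12 ± 0.15), and HSPB6, a small heat shock protein, from 218 and 206 to 55.7 and 54.9 CPM (-1.94 ± 0.08). Groups that did not overlap were a condition for naming these 8 genes.

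The response was set beside that of C4-2 to the same shRNA. In C4-2, 2338 of 14874 genes rose (15.7%) and 2416 fell (16.2%). Of 13855 genes tested in both lines 2919 changed in both: 1258 rose and 1463 fell in each, 97 rose in 22Rv1 and fell in C4-2, and 101 did the reverse. The 2721 genes that changed the same way are 44.4% of the 6124 changed in 22Rv1 and 61.8% of the 4401 changed in C4-2. In C4-2 the chi-square per gene between libraries was 21.3 with scramble and 6.26 with shCSN5, against 8.62 and 4.72 in 22Rv1. Across the 13855 genes the log2 fold changes had a Pearson correlation of 0.562, as a description of genes that share libraries. Tested as an interaction term, the effect of shCSN5 differed between the lines for 2262 of 17014 genes (13.3%), 941 above in 22Rv1 and 1321 below. Scaling by total counts, which moved the median difference from 0.026 to 0.125, gave 1298 above and 945 below. The count was 1259 without the second scramble library of 22Rv1, 977 and 1126 without its first or second shCSN5 library, and 1278 and 1027 without the first or second shCSN5 library of C4-2.

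**Figure D5:**
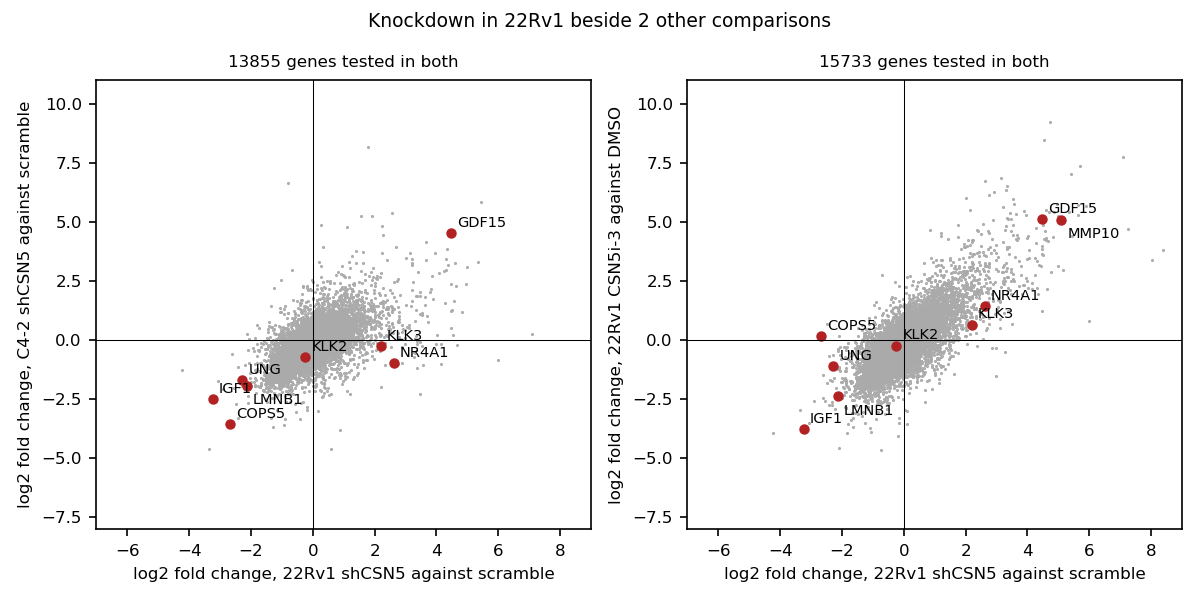
Log2 fold change with shCSN5 in 22Rv1 (x axis) against that with shCSN5 in C4-2 (left, 13855 genes) and with CSN5i-3 in 22Rv1 (right, 15733 genes), each point a gene. Named genes are in red, and COPS5 is low on both axes on the left alone.

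Immediate early genes differed between the lines. In C4-2 5 of 18 rose and 2 fell (median 0.17). Of 25 members tested for a difference, 11 had an effect above that of C4-2 and 1 one below. Over all genes tested 13.3% differed, in either direction. NR4A1 fell in C4-2, with 9.66 and 13.8 CPM with scramble and 6.53 and 5.4 CPM with shCSN5, so that the effects differed by 3.57 ± 0.31 (edgeR adjusted p = 0.00021). JUN (1.56 ± 0.18) and FOSL2 (1.82 ± 0.13) had an effect above that in C4-2 as well. Among the feedback genes PHLDA1 (2.56 ± 0.18) and SPRY2 (2.64 ± 0.20) differed too, and SPRY2 fell in C4-2, with 2.43 and 2.26 CPM with scramble and 0.734 and 0.849 CPM with shCSN5. The ligand HBEGF (1.21 ± 0.16) and the inhibitor ERRFI1 (1.68 ± 0.11) were above.

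Basal and squamous genes were above C4-2 in 9 of 19 cases and below in 0, with 11 of 16 that rose in C4-2. Over all genes tested 13.3% differed. TM4SF1, a membrane protein of migrating cells, moved in opposite directions: from 0.488 and 0.474 to 5.39 and 5.36 CPM (3.47 ± 0.24) in 22Rv1, and 75.2 and 70.4 CPM with scramble and 14.2 and 15.4 CPM with shCSN5 in C4-2, a difference of 5.74 ± 0.19 (edgeR adjusted p = 3.5e-06). PLK2, a kinase induced by serum and stress, had 6.58 and 8.14 CPM in the scramble libraries and 71.4 and 74.2 CPM in the shCSN5 libraries in 22Rv1 and 34.6 and 29.6 CPM with scramble and 20.7 and 23.5 CPM with shCSN5 in C4-2, a difference of 3.82 ± 0.17. F5, coagulation factor V, differed by 4.5 ± 0.32. All tested histones rose in 22Rv1, whereas 6 of 9 fell in C4-2, and 6 of 9 differed, H2BC12 by 2.27 ± 0.12.

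Other genes answered more strongly in C4-2. TNFSF15, a cytokine of the TNF family, had 22.4 and 26.9 CPM in the scramble libraries and 69.7 and 76.3 CPM in the shCSN5 libraries in 22Rv1 and 6.18 and 5.53 CPM with scramble and 214 and 226 CPM with shCSN5 in C4-2, a difference of -3.69 ± 0.14. CAMK2N1, an inhibitor of CaM kinase II, had 8.54 and 9.3 CPM in the scramble libraries and 33.3 and 33.9 CPM in the shCSN5 libraries in 22Rv1 and 5.21 and 4.86 CPM with scramble and 195 and 186 CPM with shCSN5 in C4-2, a difference of -3.35 ± 0.12. For both genes the libraries of the groups were apart in each line. The largest differences were named only where the effects of the lines did not overlap, so this adds no support. GLDC, which breaks down glycine, fell in 22Rv1 and rose in C4-2 (difference -3.65 ± 0.31). REG4, a secreted lectin, rose in both, from 18.5 and 21.1 to 114 and 119 CPM (2.56 ± 0.10) in 22Rv1, with a difference of -2.82 ± 0.37. Targets of p53 had a median of 1.16 in C4-2, where 25 of 27 rose, and 15 had an effect below that of C4-2 and 1 one above. CDKN1A was at 2.67 ± 0.11 in C4-2 (difference -1.65 ± 0.14). For ATF4 genes, 11 of 20 rose in C4-2 and 10 were below in 22Rv1, SLC7A11 by -1.33 ± 0.12. Origin genes had a median of -1.55 and mitosis genes of -1.65 in C4-2, and 9 of 20 and 10 of 30 fell less in 22Rv1. Over all genes tested 13.3% differed, in either direction.

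The androgen axis differed in part. KLK3 had 3442 and 3789 CPM with scramble and 3109 and 2926 CPM with shCSN5 in C4-2, a far higher level than in 22Rv1, and the effects differed by 2.44 ± 0.12. SLC45A3 (-1.49 ± 0.18) and FOXA1 (-0.54 ± 0.08) were below C4-2, and AGR2 above it (2.06 ± 0.11). IGFBP3 was at -1.68 ± 0.10 in C4-2 and differed by 1.73 ± 0.088. The lines sit in 1 table, and their cell identity and the depth of knockdown, which was larger in C4-2, cannot be told apart as sources of these differences.

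The response was also set beside that of 22Rv1 to CSN5i-3. There 1970 of 16739 genes rose (11.8%) and 2040 fell (12.2%). Of 15733 genes tested in both experiments 2898 changed in both: 1387 rose and 1459 fell in each, and 26 and 26 went opposite ways. The 2846 that changed the same way are 41.3% of the 6893 changed with shCSN5 and 75.5% of the 3768 changed with CSN5i-3. The Pearson correlation across genes was 0.751. The chi-square per gene between libraries was 35.9 with DMSO and 57.4 with CSN5i-3, against 8.62 with scramble and 4.72 with shCSN5. This value is taken on raw counts and grows with depth, so it is not on 1 scale here. The DMSO and CSN5i-3 libraries held 35.0 to 39.3 M counts, and the scramble and shCSN5 libraries 20.6 to 24.2 M. Shares of genes called depend on spread and depth, so they do not measure the size of a response. The effects differed for 730 of 17039 genes (4.28%), 324 above with shCSN5 and 406 below. Scaling by total counts, which moved the median difference from 0.05 to 0.128, gave 448 above and 357 below. This count leans on single libraries: it was 89 and 69 without the first or second scramble library, 43 and 54 without the first or second shCSN5 library, 301 and 274 without the first or second DMSO library and 1494 without the first CSN5i-3 library. The 2 experiments also differ in table and agent, which cannot be told apart.

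COPS5 itself had 92.5 and 78.9 CPM in the DMSO libraries and 91.5 and 100.4 CPM in those with CSN5i-3 in the inhibitor experiment, so its effects differed by -2.86 ± 0.16, which sets the knockdown apart from the inhibitor. RPIA and TMEM64 fell with the shRNA and did not pass the test with the inhibitor: RPIA had 42.2 and 38.5 CPM in the DMSO libraries and 32.2 and 32.7 CPM in those with CSN5i-3, a difference of -1.77 ± 0.15, and changed by -2.08 ± 0.16 with shCSN5 in C4-2. TMEM64 had 78.6 and 64.9 CPM in the DMSO libraries and 41.7 and 51 CPM in those with CSN5i-3, a difference of -1.67 ± 0.20, and changed by -1.93 ± 0.16 in C4-2. The difference of TMEM64 did not pass without the second scramble library (edgeR adjusted p = 0.053), nor without the first or second shCSN5 library (0.063 and 0.071). Neither gene passed the test of a difference between the lines (RPIA -0.005 ± 0.18 and TMEM64 -0.37 ± 0.17), TMEM64 except without the first scramble library of C4-2 (-0.58, edgeR adjusted p = 0.023).

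Origin genes had a median of -1.99 with the inhibitor and synthesis genes of -1.8, and 11 of 20 and 9 of 23 members fell less with shCSN5. UNG was the 1 synthesis gene that fell further with shCSN5, by -1.18 ± 0.12, and this did not pass without the first shCSN5 library (edgeR adjusted p = 0.051). Mitosis genes had a median of -1.71, and 2 of 30 differed, where 4.28% of all genes tested differed. CDKN1A was at 3.11 ± 0.18 with the inhibitor (difference -2.08 ± 0.19).

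Immediate early genes rose in 15 of 24 cases with CSN5i-3 (median 1.2). The effects differed for 4 of 25, and for 4.28% of all genes tested. FOSB had 3.61 and 3.16 CPM in the DMSO libraries and 2.85 and 2.45 CPM in those with CSN5i-3, and its effect was 3.31 ± 0.21 above with shCSN5 (edgeR adjusted p = 0.0017). JUN had 23.5 and 29.7 CPM in the DMSO libraries and 29.6 and 23.1 CPM in those with CSN5i-3, a difference of 1.41 ± 0.24 that did not pass without any 1 of the 4 knockdown libraries (edgeR adjusted p from 0.083 to 0.12) or without the second DMSO library (0.066). S100 and annexin genes rose in 11 of 14 cases with the inhibitor (median 3.24). ANXA3 had 0.593 and 0.564 CPM in the DMSO libraries and 38.2 and 42.5 CPM in those with CSN5i-3, a difference of -3.36 ± 0.25, and CLDN1 1.52 and 1.24 CPM in the DMSO libraries and 57.9 and 66.5 CPM in those with CSN5i-3, a difference of -3.36 ± 0.26. CA12, a carbonic anhydrase, had 42.2 and 44.9 CPM with scramble and 45 and 44.2 CPM with shCSN5 (0.032 ± 0.094, edgeR adjusted p = 0.80) with the knockdown and 48.8 and 46.5 CPM in the DMSO libraries and 223 and 227 CPM in those with CSN5i-3, a difference of -2.22 ± 0.12.

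Of 18 chaperones of the endoplasmic reticulum 12 fell with CSN5i-3, and 10 of the 18 differed, where 4.28% of all genes tested differed. HSPA5 changed by -1.14 ± 0.14 (difference 1.32 ± 0.13). Of 24 cholesterol synthesis genes 6 fell and 0 rose with CSN5i-3. Among the 24 tested for a difference, 5 had an effect above with shCSN5. STXBP6, a protein of vesicle fusion, rose from 6.24 and 5.94 to 14.8 and 12.2 CPM (1.15 ± 0.15) with shCSN5 and had 4.84 and 4.79 CPM in the DMSO libraries and 1.66 and 1.39 CPM in those with CSN5i-3, a difference of 2.79 ± 0.22.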

How the data were processed

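RNA was measured in 22Rv1 cells with a scramble shRNA or shCSN5. The authors deposited whole-number counts per gene and library, made with Partek per the submitters' processing notes, with no version given. Aligner, genome build, RNA selection and strand: not given in the sources used here. Thus whether reads of overlapping and antisense genes were kept apart is not known, and the genes named here were not checked for it. Of 57445 Ensembl identifiers 89.6% matched a gene name, and 27 of 28 symbols turned into dates were replaced through their identifiers. Groups follow titles and descriptions.

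Counts were tested by quasi-likelihood in edgeR 4.0.16 (R 4.3.3, limma 3.58.1) with TMM scaling, filterByExpr at a minimum count of 10, 2 residual degrees of freedom and Benjamini-Hochberg adjustment over all genes tested. An SE is the size of a log2 change over the root of its F statistic. Differences from C4-2 and from CSN5i-3 were interaction terms over 8 libraries each, the latter joining 2 tables by gene identifier. DESeq2 1.42.0, other scalings, no filter, a spread shared with C4-2, a replicate block, a 2-fold limit and leaving out each library were tried. Procedures were tested on simulated counts. Groups with 3 or fewer counts are given as a bound on a floor of 3 counts over the group or as a ratio with a 95% exact interval, which cover counting error only.

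The 51 lists come from textbook knowledge, and 959 of their 966 genes matched. The experiment and the lists were chosen with earlier results of these data known. Named genes are COPS5, the 15 largest increases and decreases whose mean reached 5 CPM, with no overlap between groups, passing over clone-based, LINC, LOC, antisense and unnamed entries, up to 3 members of a list in each direction by adjusted p, members of short lists (COP9 subunits, cullins, hormone receptors and kallikreins, CDK inhibitors, IGF axis, EGF ligands, MAP kinase feedback, keratins and metalloproteinases), and the 8 largest differences in each direction. A few of these are not reported here. Other genes, such as FOSL1, FOSL2, JUN, EGR1, SRF, KRT8, PLK1, RFC3, POLA1, SKP2, MCL1 and SLC45A3, and the promoter windows shown, were chosen after their values were seen.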

Additional observations from a re-analysis of the deposited data

Results flagged for a closer look

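Each result here is a difference between the effect of shCSN5 in 22Rv1 and the effect in another experiment. It passed the edgeR test at an adjusted p under 0.05 and is given as a difference of log2 fold changes. The effect of shCSN5 by itself did not always pass, as for DERL3 and CA12. Against C4-2, 941 genes had an effect above that in C4-2 and 1321 one below it. Above stood TM4SF1 (5.74), ST6GALNAC1, a sialyltransferase (4.59), F5 (4.50), PLK2 (3.82) and NR4A1 (3.57). TM4SF1 rose in 22Rv1, from 0.488 and 0.474 to 5.39 and 5.36 CPM (3.47 ± 0.24), where its level was far under that in C4-2, with 75.2 and 70.4 CPM with scramble and 14.2 and 15.4 CPM with shCSN5. ST6GALNAC1 rose from 0.146 and 0.0431 to 1.08 and 1.19 CPM (3.55 ± 0.52), again from a level near 0, and C4-2 had 219 and 237 CPM with scramble and 111 and 108 CPM with shCSN5. Below stood TNFSF15 (-3.69), GLDC (-3.65), CAMK2N1 (-3.35) and REG4 (-2.82). TNFSF15, CAMK2N1 and REG4 rose in both lines, and GLDC, a glycine-cleaving enzyme, fell in 22Rv1 and rose in C4-2.

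Against CSN5i-3 in 22Rv1, 324 genes had an effect above and 406 one below with shCSN5. Above stood DERL3, of protein degradation at the endoplasmic reticulum (3.64), FOSB (3.31), STXBP6 (2.79), DDC (2.51), PTK7, a Wnt co-receptor (2.38), CLSTN2, a synaptic protein (2.26), SI, sucrase-isomaltase (2.24), and UHRF1, a reader of DNA methylation (2.20). DERL3 had 23.9 and 18.8 CPM with scramble and 25.1 and 20.3 CPM with shCSN5 (0.093 ± 0.15, edgeR adjusted p = 0.65), and 26.2 and 39.3 CPM in the DMSO libraries and 3.42 and 2.15 CPM in those with CSN5i-3. SI rose with shCSN5, from 5.95 and 6.89 to 39.7 and 42.4 CPM (2.67 ± 0.13), and had 4.59 and 3.58 CPM in the DMSO libraries and 4.54 and 6.33 CPM in those with CSN5i-3. UHRF1 fell with shCSN5, from 27.4 and 22.1 to 16.6 and 10.9 CPM (-0.85 ± 0.19), and fell further with CSN5i-3 (-3.05 ± 0.36). Below stood ANKRD1, a YAP target (-4.03), CLDN1 (-3.36), ANXA3 (-3.36), KRT80 (-3.32), COPS5 (-2.86), LAT2, an adaptor (-2.42), REG4 (-2.37) and CA12 (-2.22). ANKRD1 rose from a low level with shCSN5, from 0.537 and 0.431 to 2.11 and 1.76 CPM (2.0 ± 0.31), and had 0.283 and 0.451 CPM in the DMSO libraries and 21.9 and 25.7 CPM in those with CSN5i-3. FOSB, STXBP6, CLSTN2, CLDN1, ANXA3, COPS5, REG4 and CA12 passed under every alternative run other than the replicate block. The calls of DERL3, DDC, PTK7, SI, UHRF1, ANKRD1, KRT80 and LAT2 were each lost without at least 1 library, with edgeR adjusted p at 0.051 without the first shCSN5 library for DERL3, DDC, KRT80 and LAT2, and 0.051 without the first scramble library for ANKRD1. PTK7 did not pass without the second scramble library or either shCSN5 library, SI without any 1 of the 4 knockdown libraries, and UHRF1 without any of those, the second DMSO or the second CSN5i-3 library. KRT80 also did not pass without the second scramble library, LAT2 without the second shCSN5 library, and DDC without either of these 2. The inhibitor libraries stand in a separate table, so that agent and table cannot be told apart.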

How the results depend on the processing

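No named gene that passed changed its sign under any alternative run. The count of 6988 ran from 4206 to 7878 as single libraries were left out, the lowest without the first shCSN5 library, and was 1914 with a 2-fold limit, 5283 with DESeq2 and 9717 with the replicate number as a block. Same-numbered libraries deviated together with a correlation of 0.48, but with 2 pairs and nothing in the labels on what a number marks, pairing is not established. The difference from C4-2 held for 2262 genes, 977 to 3201 with a library left out, 1686 with DESeq2 and 1237 with the replicate block. The difference from CSN5i-3 held for 730 genes, 43 to 1494 with a library left out, 2028 with no low-count filter and 19 with the replicate block. The cause of these shifts was not tested. Of the named genes 224 of 291 that changed, 27 of 31 that differed from C4-2 and 11 of 22 that differed from CSN5i-3 passed under every alternative other than the block. The block ended the calls against CSN5i-3 of CLSTN2, DDC, DERL3, HSPA5, JUN, LAT2, PTK7, RPIA, SI, TMEM64, UHRF1 and UNG. Among lists with few calls, the higher count of G1 cyclins, E2F and pocket proteins went from 1 to 3 (to 0 without the second shCSN5 library) and that of fibroblast markers from 2 to 1 without the first scramble library, where the lower count of EGF ligands and receptors went from 1 to 2. The lower count went from 2 to 1 for metalloproteinases without the first shCSN5 library, and for the NF-kB and MHC class I lists without the second.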
